A study of Sus scrofa with 32 samples.

Results

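The myosin heavy chain genes studied here were MYH1, MYH2, MYH3, MYH4, MYH7 and MYH8, the 6 genes that name the motor proteins of embryonic, neonatal and adult skeletal muscle fibres. They were chosen by name, with earlier results of these data known. Of the 6 genes, 4 had a position in the RefSeq gene table of the pig build Sscrofa11.1, among 19550 protein-coding genes on placed chromosomes, and MYH3 and MYH8 had none and were not analysed here. MYH4, MYH1 and MYH2 lie side by side on chromosome 12, and MYH7 is the only located member on chromosome 7. For each gene, peaks were counted in its window, the annotated span plus 5 kb on both sides.

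CUT&Tag, which cuts and tags the DNA beside an antibody-bound histone, was run in cells labelled as pig muscle satellite cells, from which muscle fibres regenerate. The antibodies were against H3K4me3, a mark of active promoters, H3K27ac, a mark of promoters and enhancers in use, and H3K27me3, laid down by Polycomb complexes at silent genes. Per antibody there were 2 libraries for each of 4 conditions, which were untreated cells at 0 h (WT 0 h), untreated cells at 60 h (WT 60 h), treated cells at 0 h (CBP 0 h) and treated cells at 60 h (CBP 60 h). The treatment was SGC-CBP30, an inhibitor of the bromodomains by which the acetyltransferases CBP and p300 bind acetylated histones. Per the labels the treatment lasted 48 h in the proliferating cells and 60 h in the differentiating cells, at a dose written as 5 uM/ml, a unit that the labels do not explain. The labels of all groups also name C3H cells grown in RPMI, which conflicts with the pig and satellite cell labels, and the 60 h samples carry proliferation in their treatment field.

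A muscle fibre sets its speed and endurance largely by which heavy chain it makes. MYH7 encodes the slow chain, also used in heart muscle, MYH2, MYH1 and MYH4 encode the fast chains of types IIa, IIx and IIb, and MYH3 and MYH8 encode the embryonic and perinatal chains of developing and regenerating muscle. In mammals the fast and developmental genes form 1 cluster, while MYH7 sits in a separate pair with MYH6.

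What was measured was where each library had peaks. Lists held 14898 to 17364 peaks for H3K4me3, 8969 to 23437 for H3K27ac and 1338 to 19317 for H3K27me3, while their read depth is not stated by the sources at hand. Of the satellite and myogenic markers PAX7, MYF5, MYOD1, MYOG, DES and CDH15, 5 of 6 carried H3K4me3 in both WT 0 h libraries, all but MYOG, and 6 of 6 did in both WT 60 h libraries. At CBP 0 h MYOD1 and MYOG had none. The summed H3K27ac length of these markers was 15.3 to 16.3 kb at WT 0 h and 30.6 to 31.6 kb at WT 60 h. In treated cells it was 5.19 to 7.58 kb at 0 h and 17.8 to 20.7 kb at 60 h, so it moves with the results below. DES, MYOD1, CDH15 and MYOG had no H3K27ac at WT 0 h or CBP 0 h. The heart markers GATA4, NKX2-5 and NPPA had no H3K4me3 or H3K27ac in any library. Of 7 fibroblast markers, 5 carried H3K4me3 in every condition, while DCN and LUM were at 0 in WT. Their summed H3K27ac length was 5.43 to 5.77 kb at WT 0 h, 22.4 to 26.9 kb at WT 60 h, 0.922 to 1.39 kb at CBP 0 h and 9.43 to 10.4 kb at CBP 60 h, which moves with the results below. Smooth muscle markers moved the same way, with a summed H3K27ac length of 0.591 to 0.696 kb at WT 0 h, 4.1 to 4.69 kb at WT 60 h, 0 to 0.262 kb at CBP 0 h and 3.22 to 3.24 kb at CBP 60 h. At WT 60 h 2 of these 4 markers carried the mark, and CNN1 and MYH11 were at 0 in every condition. The 3 immune markers had 0.614 to 0.727 kb, 1.78 to 2.08 kb, 0 kb and 0.834 to 1.14 kb in the same order, with PTPRC at 0 throughout. The part of these lists in the results was not tested. Nothing in the labels says that libraries of a group came from separate cultures, so errors and p-values measure the spread between libraries. Values with an error are mean ± SD over n = 2 libraries.

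None of the 3 fast genes carried a peak of any mark in any of the 24 libraries. MYH4 (gene 100144306, chromosome 12, 55190545 to 55216294), which encodes the IIb chain, had 0 kb under H3K4me3, H3K27ac and H3K27me3 peaks in all 4 conditions. MYH1 (gene 100125538, 55225581 to 55251495), the IIx gene, likewise had 0 kb in every library. MYH2 (gene 397256, 55252974 to 55278820), the IIa gene, also had 0 kb in every library. The windows of these genes overlap, because 9.29 kb separates MYH4 from MYH1 and 1.48 kb separates MYH1 from MYH2, so they form 1 joint window of 98.3 kb and are not independent observations. The members are close paralogs, and the sources at hand do not say how reads matching several copies were treated. The values therefore state only that no peak was listed.

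**Figure D1:**
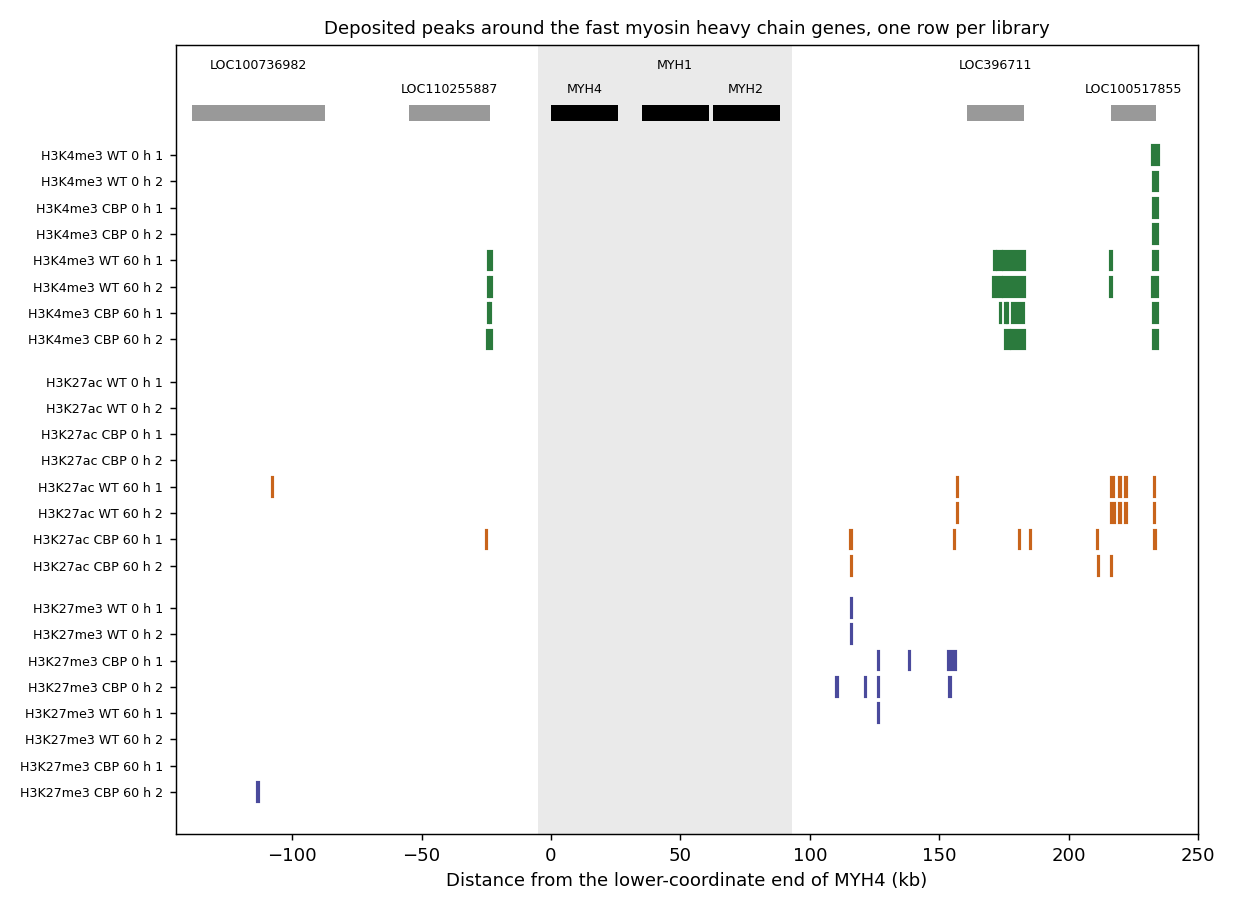
Deposited peaks around the fast genes, with 1 row per library (mark, condition, replicate) and the distance from the lower-coordinate end of MYH4 in kb on the horizontal axis. The grey band is the joint window of MYH4, MYH1 and MYH2 (black bars), grey bars are neighbouring gene models, and narrow peaks are widened by their outline. No peak of any of the 24 libraries falls in the band, while H3K4me3 appears on both sides of it at 60 h.

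A window without a peak was common among pig genes. Of the 19550 genes, 3223 (16.5%) had no base under a peak of any mark in all 24 libraries. Among the 2031 genes with spans of 20 to 30 kb, the size class of these genes, the count was 222 (10.9%). By mark, 30.4% of all genes had no H3K4me3 base, 41.3% no H3K27ac base and 74.1% no H3K27me3 base. The empty stretch around the fast genes ran from the last peak base at 55167765 to the next at 55300637, a length of 132.9 kb. Of the 70042 stretches between peaks of any library, 3413 (4.87%) were at least this long, and they held 2207 genes (11.3%). The fast genes therefore had the state of a sizeable minority of genes.

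The peaks closest to the fast genes were nearer at 60 h in H3K4me3 and H3K27ac, where every 60 h library had a closer peak than every 0 h library for MYH4, MYH1 and MYH2. The median H3K27ac distance over all genes also fell, from 22.3 and 32.2 kb at WT 0 h to 6.31 and 10.25 kb at WT 60 h. In CBP that median fell from 69.1 and 95.2 kb to 27.2 and 47.9 kb. In H3K4me3 it was 0 kb in every library. The share of all genes with such a separation of the times was not counted. From MYH4 the nearest H3K4me3 peak was between 22.8 and 206.7 kb away over the 8 libraries, with a median of 114.9 kb. From MYH2 it was between 82.6 and 144.2 kb away, and from MYH1 between 57.8 and 171.5 kb. In H3K27ac the distances ran from 24.9 to 297.7 kb for MYH4, from 54.6 to 332.8 kb for MYH1 and from 27.3 to 360.2 kb for MYH2. In H3K27me3 they ran from 84.3 to 397.9 kb for MYH4, from 49.1 to 432.9 kb for MYH1 and from 21.8 to 460.3 kb for MYH2. MYH1 was farther from an H3K4me3 peak than most genes, since between 8.6 and 17.8% of genes were at least as far over the 8 libraries. In H3K27me3 that share was between 28.8 and 91.3%.

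**Figure D2:**
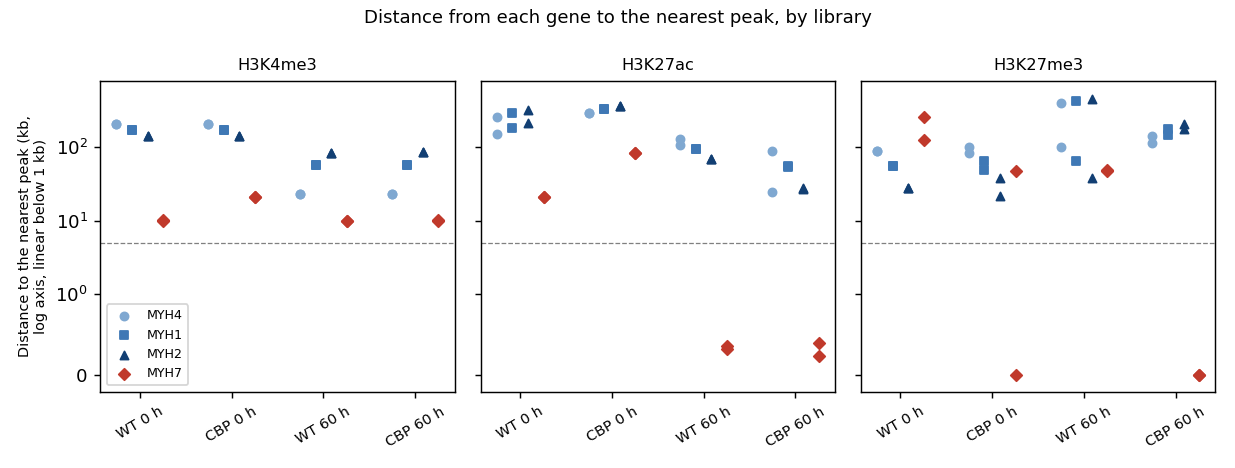
Distance from each gene to the nearest peak in kb (log axis, linear below 1 kb), with 2 libraries per condition and a dashed line at the window edge of 5 kb. The fast genes stay above the line in every library, and MYH7 reaches below it in H3K27ac at 60 h and in H3K27me3 in 3 of the 4 treated libraries.

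Beyond MYH2, the nearest H3K27ac region was listed in treated cells only. It spans 55306113 to 55306941, 27.3 kb beyond MYH2, and was listed in both CBP 60 h libraries and in none of the other 6. The same place held an H3K27me3 region at 55306513 to 55306870 in both WT 0 h libraries and in none of the other 6. A further H3K27me3 region, at 55316685 to 55317262, was listed in both CBP 0 h libraries and in 1 WT 60 h library. A broader one of 2999 bp, at 55343958 to 55346956, was listed in both CBP 0 h libraries. These regions lie between MYH2 and LOC396711 and are given as positions without a test.

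The gene models that flank the fast genes did carry H3K4me3 after differentiation. LOC396711 (gene 396711, chromosome 12, 55351152 to 55373236) is a protein-coding model with no gene symbol in the tables used, so whether it is MYH3, MYH8 or another gene was not settled here. Its H3K4me3 length was 0 kb in all 4 libraries at 0 h, 11.13 and 10.38 kb in the WT 60 h libraries, and 6.18 and 7.23 kb in the CBP 60 h libraries. The 60 h groups did not overlap. The rise in WT, from 0 to 10.7 ± 0.535 kb, was 4.49 on the log2 scale (SE 0.0765, limma adjusted p = 1.64e-06), where log2 values are of base pairs plus 500 and so understate a gain from 0. It was the largest H3K4me3 rise of the 13394 genes tested in that comparison. In treated cells the length at 60 h fell to 6.70 ± 0.743 kb, a log2 change of -0.65 (SE 0.0765, adjusted p = 0.00314). In this comparison 10.3% of genes were higher and 7.36% lower. The call was lost with stricter peaks, those of a -log10 q of 5 or more (adjusted p = 0.0578), and with lists of equal length (adjusted p = 0.0525). Most of the length was 1 region of 8678 bp, at 55365052 to 55373729, over the upper-coordinate end of the model.

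The model on the other side moved less. LOC110255887 (gene 110255887, chromosome 12, 55135651 to 55166983) also has no symbol in the tables. Its H3K4me3 length was 0 kb in all 4 libraries at 0 h, 0.987 and 1.15 kb at WT 60 h, and 0.951 and 1.81 kb at CBP 60 h, so the 60 h groups overlapped. It rose in WT by 1.65 on the log2 scale (SE 0.208, adjusted p = 0.00131), and that call was lost with the stricter peaks (adjusted p = 0.479) and with lists of equal length (adjusted p = 0.47). In H3K4me3 42.2% of all genes tested rose in WT. The difference between CBP and WT at 60 h was 0.22 (adjusted p = 0.522). It passed without the first CBP 60 h library, at 0.56 (adjusted p = 0.0377).

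The model after LOC396711, LOC100517855 (gene 100517855, chromosome 12, 55406730 to 55424120), carried H3K4me3 in all 8 libraries. Its H3K27ac length was 0 kb at 0 h, 2.86 and 3.61 kb at WT 60 h, and 0.967 and 1.15 kb at CBP 60 h. The groups at 60 h did not overlap. H3K27ac rose in WT by 2.90 (SE 0.134, adjusted p = 8.87e-05) and was lower in CBP at 60 h by a log2 change of -1.26 (adjusted p = 0.00116). Among all genes tested in H3K27ac, 46.8% rose in WT and 45.8% were lower in CBP at 60 h. H3K4me3 at LOC100517855 also rose in WT, by 0.42 (limma adjusted p = 0.000364). It was lower in CBP at 60 h by a log2 change of -0.52 (limma adjusted p = 0.000575). By contrast, H3K27ac at LOC396711 was 0.541 and 0.517 kb at WT 60 h and 1.21 and 0 kb at CBP 60 h, and neither comparison passed (adjusted p = 0.166 and 0.872). The rise in WT was 1.04 and passed without either CBP 60 h library (adjusted p = 0.000173 and 0.000325). The LOC396711 H3K27ac values at CBP 60 h disagreed between the libraries: without the first, CBP was lower than WT by a log2 change of -1.04 (adjusted p = 0.000591), and without the second it was higher by 0.73 (adjusted p = 0.00296).

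**Figure D3:**
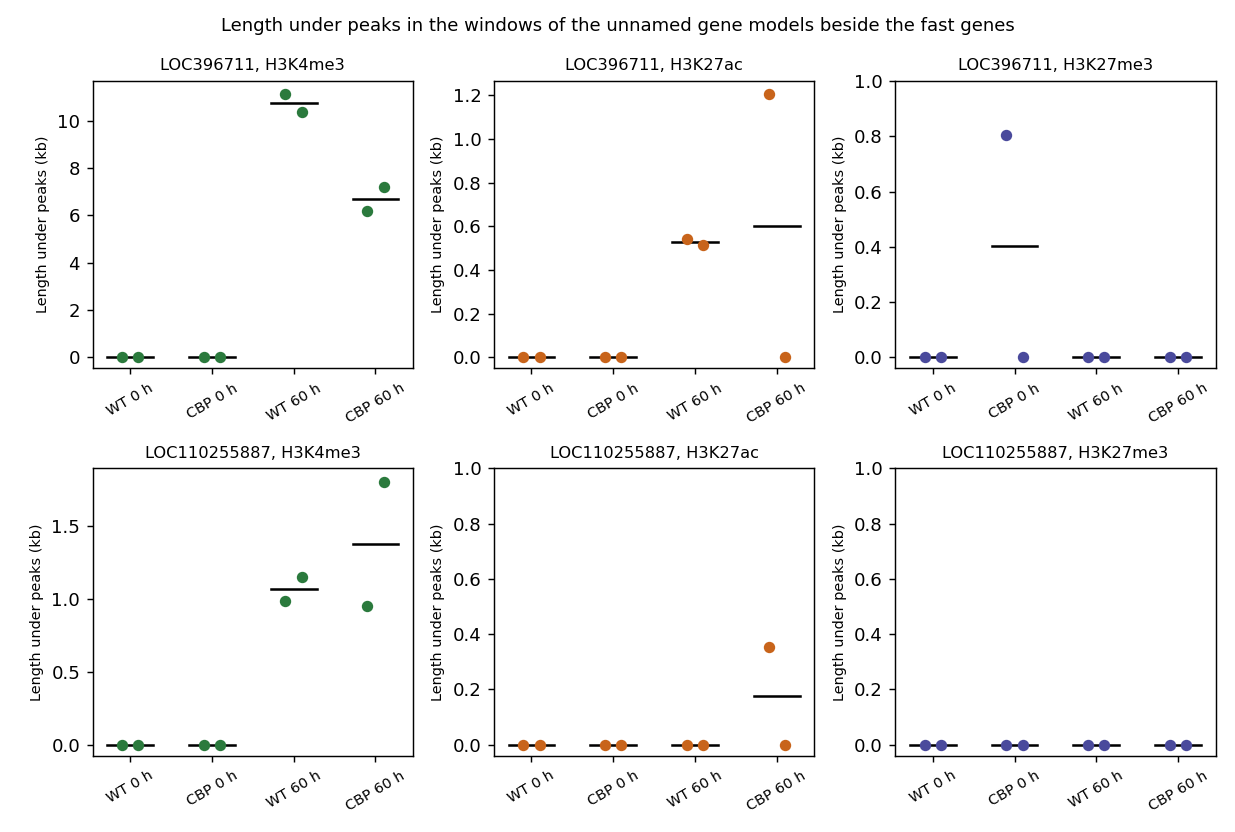
Length under peaks in kb in the windows of LOC396711 and LOC110255887, the models on either side of the fast genes, by mark and condition. Points are libraries and lines are means of 2 libraries, and the vertical scale differs between panels. H3K4me3 is at 0 in all 4 libraries at 0 h, and reaches 10.38 to 11.13 kb at WT 60 h for LOC396711.

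MYH7 was the only located member with a listed peak. The gene (gene 396860, chromosome 7, 75650841 to 75672908) had no H3K4me3 peak in its window in any of the 8 libraries. The nearest H3K4me3 peak lay 9.97 kb or more from it in every library and 10.1 kb in the median. That peak belongs to a region at 75682874 to 75683665 inside the next gene model, LOC100736765, and was listed in all H3K4me3 libraries except those of CBP 0 h. H3K4me3 was thus not testable at any located member, and among all 13394 genes tested 42.2% rose and 5.85% fell in it between 0 h and 60 h in WT.

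H3K27ac appeared beside MYH7 after differentiation. Its length in the window was 0 kb in both WT 0 h libraries and in both CBP 0 h libraries. At 60 h it was 1.95 and 1.42 kb in WT and 0.386 and 0.753 kb in CBP. Every 60 h library was above every 0 h library, and the WT and CBP libraries did not overlap at 60 h. In WT the length rose from 0 to 1.68 ± 0.375 kb, by 2.11 on the log2 scale (SE 0.207, limma adjusted p = 0.000749). H3K27ac was testable at 1 of the 4 located members, and 46.8% of the 10294 genes tested rose and 10.6% fell, so a rise by itself was common. MYH7 passed the length filter through its 60 h libraries only, so the libraries that were high also decided that it was tested. With no filter on low values the limma adjusted p was 0.000966. The call held without each library in turn and was lost with lists of equal length, at 1.15 (adjusted p = 0.281).

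**Figure D4:**
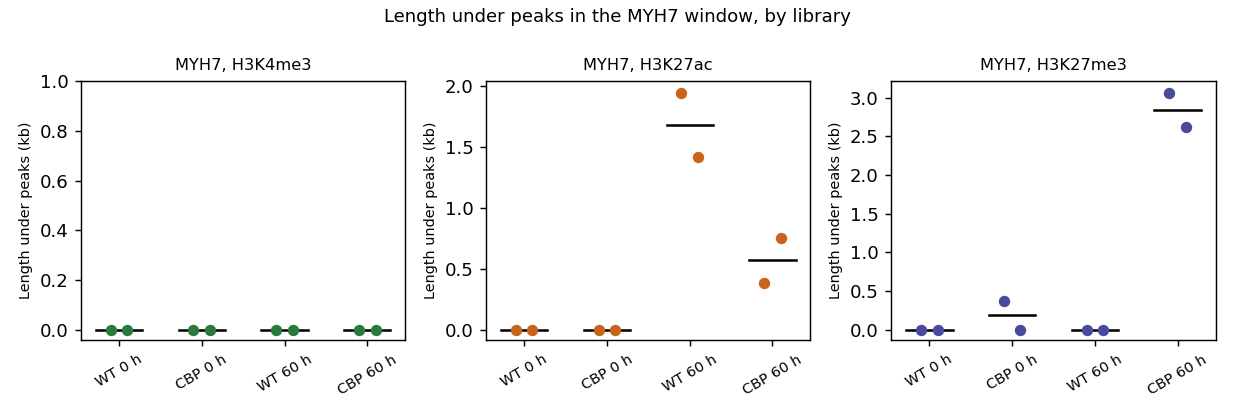
Length under peaks in kb in the MYH7 window, by mark and condition, with points for libraries and lines for means of 2 libraries. H3K4me3 is at 0 throughout, H3K27ac is at 0 at 0 h and highest at WT 60 h, and H3K27me3 is highest at CBP 60 h.

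In treated cells MYH7 had less H3K27ac at 60 h. The mean was 0.57 ± 0.26 kb against 1.68 ± 0.375 kb in WT, a log2 change of -1.04 (SE 0.207, adjusted p = 0.0114). Among all genes tested in H3K27ac, 45.8% were lower in CBP at 60 h and 3.03% higher. The CBP 60 h lists were shorter as a whole, with 17019 and 13750 peaks against 23437 and 21694 in WT 60 h, and with lists of equal length the change at MYH7 was -0.73 (adjusted p = 0.53). Without the first WT 60 h library it was -0.86 (adjusted p = 0.07). Treated cells still gained the mark between 0 h and 60 h, by 1.07 (adjusted p = 0.0117), where 30.7% of genes rose and 8% fell. That gain was lost without the first CBP 0 h library (adjusted p = 0.058) and without the second (adjusted p = 0.0598). It was 0 with the stricter peaks and 0.41 with lists of equal length (adjusted p = 0.79). At 0 h WT and CBP were both at 0 kb, while 32.6% of genes were lower in CBP and 1.4% higher. The effect of CBP at 60 h minus that at 0 h was -1.04 (SE 0.293, unadjusted p = 0.0154, adjusted p = 0.0504) and did not pass, where 18.9% of genes passed as lower and 11.5% as higher. It passed with the stricter peaks, at -2.11 (adjusted p = 0.000527), and without the second CBP 60 h library, at -1.29 (adjusted p = 0.0189).

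The H3K27ac of MYH7 lay outside the gene, below its lower-coordinate end. The table gives no strand, so which end holds the promoter is not stated here. One region at 75649436 to 75650608, 0.233 kb from the gene, was listed in all 4 libraries at 60 h and in none at 0 h. A second, at 75647266 to 75648445, 2.40 kb from the gene, was listed in both WT 60 h libraries and in neither CBP 60 h library. Another, at 75643135 to 75643460, lay 7.38 kb away, just outside the window, and was also listed in both WT 60 h libraries only. The 2 regions farther from the gene were the ones missing from the CBP 60 h lists. With the gene span alone, without the 5 kb on each side, MYH7 had no H3K27ac to test.

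**Figure D5:**
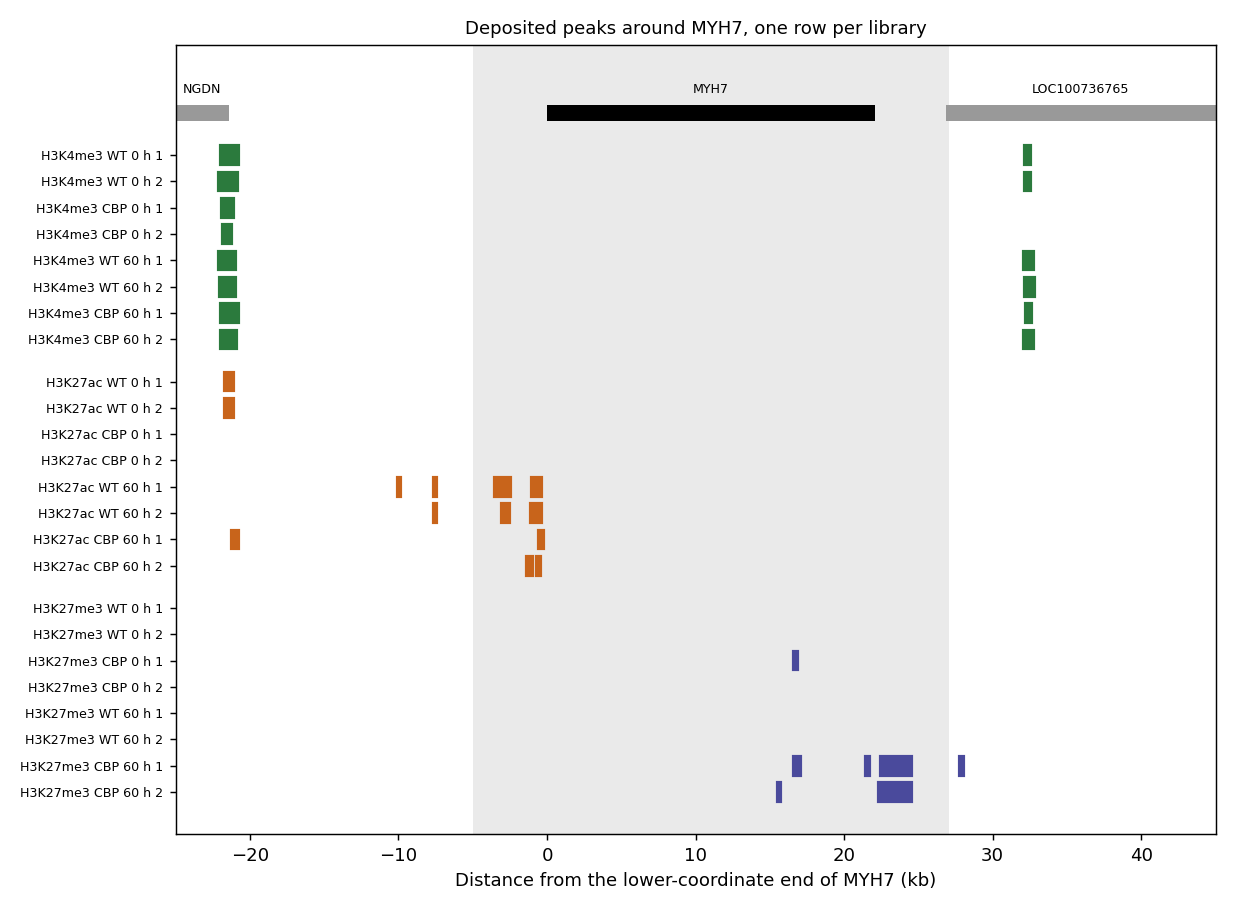
Deposited peaks around MYH7, with 1 row per library and the distance from the lower-coordinate end of the gene in kb. The grey band is the window (the gene plus 5 kb on both sides), the black bar is MYH7 and grey bars are neighbours. H3K27ac sits to the left of the gene at 60 h, and H3K27me3 sits at its right end in both CBP 60 h libraries.

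The deposited fold enrichment and -log10 q describe how strong a peak is within its own list, and are the authors' values. In the first WT 60 h library both H3K27ac peaks of MYH7 had a fold of 7.35, above the list median of 5.45. In the second they had folds of 5.23 and 4.4, near the list median of 5.44. In the CBP 60 h libraries the peak folds were 5.2 in the first and 4.65 and 3.65 in the second, against list medians of 5.01 and 5.37. The weakest, with a -log10 q of 1.87, ranked above only 1.84% of its list.

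H3K27me3 in the MYH7 window was listed in treated cells only, and most of it lay past the gene. Its length in the window was 0 kb in both WT 0 h and both WT 60 h libraries. It was 0.378 and 0 kb in the CBP 0 h libraries and 3.06 and 2.62 kb in the CBP 60 h libraries. The CBP 60 h libraries stood above the other 6, and CBP 0 h overlapped both WT groups. At 60 h the mean was 2.84 ± 0.312 kb in CBP against 0 in WT, a log2 change of 2.74 (SE 0.307, limma adjusted p = 0.00806). In this comparison 12.1% of the 4203 genes tested were higher and 2.62% lower. MYH7 passed the length filter for testing only through treated libraries. The group compared as high thus also decided that the gene was tested. With no filter on low values the limma adjusted p was 0.0117. With the gene span alone the change was 1.07 (limma adjusted p = 0.11) and did not pass. The call was lost without the second WT 60 h library (adjusted p = 0.0502), without the first CBP 60 h library (adjusted p = 0.0844) and without the second (adjusted p = 0.0722), while the change stayed between 2.64 and 2.83.

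At 0 h the H3K27me3 difference at MYH7 was 0.41 (SE 0.307, adjusted p = 0.271) and did not pass, where 77.2% of genes were higher in CBP and 0% lower. Without the second CBP 0 h library it was 0.81 (adjusted p = 0.0226). In WT the change from 0 h to 60 h was 0, where 20.9% of genes rose and 0.619% fell. In CBP it was 2.33 (adjusted p = 0.00294), where 6.69% of genes rose and 44.2% fell, and with the gene span alone it was 0.67 (adjusted p = 0.174). The effect of CBP at 60 h minus that at 0 h was 2.33 (SE 0.434, adjusted p = 0.00811). This difference passed as higher in 3.95% of genes and as lower in 53%, so MYH7 moved against most of the genes called. It passed without each library in turn, and it was lost with the gene span alone, at 0.67 (adjusted p = 0.296).

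Most of the H3K27me3 at MYH7 was 1 region past the upper-coordinate end of the gene. It spans 75673109 to 75675423, 2315 bp, begins 0.201 kb beyond the gene and was listed in both CBP 60 h libraries and in none of the other 6. It lies in the gap of 4.76 kb between MYH7 and LOC100736765, so it counts in the windows of both genes. Nothing in the lists assigns it to either. The LOC100736765 window had 2.42 ± 0.153 kb of H3K27me3 at CBP 60 h and 0 kb in the other conditions. Its difference between CBP and WT at 60 h was 2.55 (SE 0.186, limma adjusted p = 0.00664). The second region found in more than 1 library, at 75667367 to 75667946 inside the gene, was listed in the first CBP 0 h and the first CBP 60 h library. It adjoins or overlaps MIR208B (75667786 to 75667865), a microRNA gene within MYH7: the CBP 60 h peak overlaps it and the CBP 0 h peak ends 17 bases from it. The peak past the gene had a -log10 q of 1.9 in the first CBP 60 h library, whose list had a median of 2.04, and of 2.15 in the second, whose median was 1.96. By -log10 p it ranked above 37.9% and 63.8% of the peaks of those lists. The other 4 H3K27me3 peaks at MYH7 had a -log10 q of 1.42 to 1.73 and ranked above 2.12% to 21.2% of the peaks of their lists. Under the stricter peaks, and in lists of equal length, MYH7 had too little H3K27me3 to be tested.

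Set against MYH7 between 0 h and 60 h in WT, the clustered fast genes gave a difference in H3K27ac only, which the exact test could not call. The joint window of MYH4, MYH1 and MYH2 stayed at 0 kb, and its change minus that of MYH7 was -2.11 on the log2 scale. This is the MYH7 rise with its sign reversed. The larger group SD of the per-library difference was 0.249. The exact permutation p (two-sided) was 0.333, the smallest that 2 libraries against 2 can give. The exact p was also 0.333 for the other MYH7 comparisons whose groups did not overlap, which were CBP against WT at 60 h in H3K27ac and in H3K27me3. In H3K4me3 and H3K27me3 the fast genes and MYH7 were both at 0 kb in WT at both times, so the difference was 0. In CBP at 60 h MYH7 had 2.84 kb of H3K27me3 on average and the fast genes had 0 kb.

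The combination of changes seen at MYH7 was uncommon among all genes. These counts were made after its values were seen and carry no test. H3K27ac was listed in both WT 60 h and neither WT 0 h library for 2359 genes (12.1%), and 119 of those (0.609% of genes) had no H3K4me3 in any library. H3K27me3 was listed in both CBP 60 h and neither WT 60 h library for 518 genes (2.65%). Both patterns together held for 41 genes (0.21%), and with no H3K4me3 for 7 (0.0358%), which were MYH7, DNAH17, CD300LF, COL17A1, ZFR2, LOC100523213 and LOC106506442. Over all 24 libraries the 3 genes whose log2 lengths were most like those of MYH7 were CSF1R, CD300LF and LOC106506442, with root mean square differences of 0.56, 0.57 and 0.58. CSF1R is a receptor of macrophages.

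None of the other located heavy chain genes had both the H3K27ac and the H3K27me3 pattern of MYH7. Of 8 listed, 6 had a position, and MYH6 and MYH13 had none under these names and were not analysed here. Whether LOC100736765, the model without a symbol next to MYH7, is MYH6 was not settled. MYH7B, a sarcomeric relative of MYH7, had 0.621 ± 0.0502 kb of H3K4me3 at WT 0 h and 0 kb in the other conditions. Its H3K4me3 fell from 0 h to 60 h in WT, by a log2 change of -1.16 (SE 0.101, adjusted p = 0.000281), and it had no H3K27ac or H3K27me3 in any library. MYH9, a nonmuscle chain that most cells make, had H3K27ac lengths of 6.77 ± 0.215 kb at WT 0 h and 35.2 ± 0.996 kb at WT 60 h, a rise of 2.29 (SE 0.0911, adjusted p = 8.87e-05). In CBP it had 1.36 ± 0.119 kb at 0 h and 28.6 ± 2.4 kb at 60 h. Its difference between CBP and WT at 0 h was -1.97 (adjusted p = 0.000397), which with lists of equal length became 0.49 (adjusted p = 0.308).

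MYH15 fell in H3K27ac from 2.31 ± 0.0396 kb at WT 0 h to 0.735 ± 0.0347 kb at WT 60 h, by -1.19 (SE 0.198, adjusted p = 0.00514). That call was lost with the stricter peaks (adjusted p = 0.0507) and with lists of equal length (adjusted p = 0.0672). MYH11, the smooth muscle chain, had H3K27me3 and neither other mark, at 0.423 ± 0.0099 kb in WT 0 h, 2.1 ± 0.746 kb in WT 60 h, 11.2 ± 0.0856 kb in CBP 0 h and 3.38 ± 0.787 kb in CBP 60 h. CBP was higher at 0 h by 3.67 (SE 0.299, adjusted p = 0.000325) and WT rose with time by 1.47 (adjusted p = 0.0216), but in equal-length lists both became -0.44 (adjusted p = 0.392 and 0.51). The rise with time was also lost without the first WT 0 h library (adjusted p = 0.0783) and without the first WT 60 h library (adjusted p = 0.0942). MYH7 had most of its H3K27me3 at CBP 60 h and MYH11 most of its own at CBP 0 h.

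Light chains are the small subunits that bind the neck of a myosin heavy chain. Of 11 myosin light chain genes, 6 were tested in H3K27ac, and all 6 rose from 0 h to 60 h in WT, with a median log2 change of 1.91 against 0.69 over all genes tested. The 6 were MYL1, MYL2, MYLPF and MYL6B, together with MYL9, a regulatory light chain of smooth muscle, and MYL6, an essential light chain of smooth muscle and nonmuscle myosin. MYL2, the regulatory light chain of slow and heart muscle, went from 0.377 ± 0.143 to 3.16 ± 0.262 kb (log2 change 2.07, adjusted p = 0.00258). MYLPF, the regulatory light chain of fast muscle, went from 0 to 1.62 ± 0.235 kb (2.08, adjusted p = 0.000114). In CBP at 60 h 5 of the 6 were lower, with a median of -1.91 against -0.72 over all genes, and MYL2 had 0 kb (log2 change -2.87, adjusted p = 0.000976). With the gene span alone 3 were lower. Of all genes tested in H3K27ac, 46.8% were higher in WT at 60 h and 45.8% lower in CBP at 60 h. In H3K4me3 42.2% of all genes tested rose in WT. In H3K4me3 5 of 7 light chain genes rose in WT, and 3 did without either WT 60 h library. The windows of MYL6 and MYL6B overlap, so these 2 are not independent. In H3K27me3 2 of 3 light chain genes tested rose in WT, where 20.9% of all genes did. MYL4, the light chain of embryonic and atrial muscle, went from 0.184 ± 0.259 to 3.35 ± 0.18 kb (log2 change 2.55, adjusted p = 0.00791). MYL3, a light chain of slow muscle and ventricle, went from 0 to 1.46 ± 0.802 kb (1.91, adjusted p = 0.0198). The MYL3 call was lost with the gene span alone, at 0.59 (adjusted p = 0.529), and without the first WT 0 h (adjusted p = 0.0936), the second WT 0 h (adjusted p = 0.0631) or the first WT 60 h library (adjusted p = 0.0793). With stricter peaks or equal-length lists neither gene had enough of the mark to be tested.

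Thick filament partners, which bind or space the myosin rods, rose in 6 of 7 genes tested in H3K27ac and 5 of 7 in H3K4me3 in WT. The shares of all genes that rose in these marks were 46.8% and 42.2%. MYOM3, an M-band protein that links thick filaments, went from 0 to 3.24 ± 0.423 kb of H3K27ac (log2 change 2.90, adjusted p = 9.54e-05). The H3K27ac count was 2 without the first WT 60 h library, 3 with the stricter peaks and 2 with lists of equal length. In CBP at 60 h 2 of 7 were lower in H3K27ac, where 45.8% of all genes tested were. TTN, the titin spring, was among the 2, with 0.164 ± 0.231 kb against 1.58 ± 0.0707 kb in WT (log2 change -1.70, adjusted p = 0.00441). That count was 1 without either WT 60 h library, with lists of equal length or with the gene span alone, and 4 without the first CBP 60 h library.

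Of the genes for folding and assembling myosin, 4 of 5 rose in H3K27ac in WT. Over all genes tested in H3K27ac, 46.8% rose in WT and 45.8% were lower in CBP at 60 h. SMYD1, a methyltransferase needed for thick filament assembly, went from 0 to 0.78 ± 0.00707 kb of H3K27ac (log2 change 1.36, adjusted p = 8.87e-05) and was at 0 kb in CBP at 60 h (-1.36, adjusted p = 0.00011). The H3K27ac count was 2 without either WT 0 h library, 1 without the first WT 60 h library and 2 without the second. In CBP at 60 h 2 of 5 were lower, a count that was 1 without either WT 60 h library and 4 without the first CBP 60 h library or with the gene span alone.

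Of 16 regulators known to act on heavy chain genes, 14 of 16 rose in H3K27ac and 9 of 14 in H3K4me3 in WT, and the H3K27ac count was 9 without either WT 60 h library. MYOG, the factor that starts terminal differentiation, went from 0 to 4.15 ± 0.204 kb of H3K27ac (log2 change 3.22, adjusted p = 8.87e-05). In CBP at 60 h 6 of 16 were lower in H3K27ac, among them MYOD1, the master regulator of the muscle lineage, at 0 kb against 0.966 ± 0.112 kb in WT (-1.55, adjusted p = 0.00012). That count was 1 without the first WT 60 h library and 3 without the second or with lists of equal length. These lists are described by their counts beside the background of 46.8% of genes higher in WT and 45.8% lower in CBP at 60 h in H3K27ac, and 42.2% higher in WT in H3K4me3.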

How the data were processed

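The members and gene lists were chosen with earlier results of these data known. The authors deposited 1 peak list per library, and per the submitters' processing notes Trimmomatic, MACS2 2.1.0 and the build Sscrofa11.1 were used. Alignment, calling options, control library and depth are not stated by the sources at hand, so no precision from depth can be given. The deposited score column is the display score of MACS2. The deposited ratio column is the fold enrichment over the local background of that library. The deposited -log10 p and -log10 q columns give each peak's significance. The other deposited columns used are peak starts and ends. The 8 IgG samples were not analysed here.

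Peaks of a list were merged, and base pairs under them were summed in each gene's span plus 5 kb (Python 3.11.15, numpy 2.4.6, pandas 2.3.3). Per mark, log2(base pairs + 500) was fitted with limma 3.58.1 (R 4.3.3; moderated by eBayes, trend and robust on), keeping genes of 200 bp or more in 2 or more of 8 libraries, with 4 residual degrees of freedom. Benjamini-Hochberg adjustment ran over all genes of a contrast, with calls below 0.05. Groups with every library at 0 add no spread but count in the residual degrees of freedom. The SEs and p-values of gains from 0, such as those at MYH7 and LOC396711, may therefore be too small. A gene at 0 in some groups is kept by the filter through the groups where it has peaks. The fit was tested on simulated data. All located members were named, and from the other lists up to 3 called genes per mark and contrast with the largest change and groups that do not overlap. The nearest-peak distances, the flanking gene models and the pattern counts were added after values were seen. Alternatives were peaks of a -log10 q of at least 5, no extension, 100 bp added, no filter, lists cut to equal length by -log10 p, a replicate block, and each library left out. Figures were drawn with matplotlib 3.10.9.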

Additional observations from a re-analysis of the deposited data

Results flagged for a closer look

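One result at the members was marked because 2 groups' effects under the same contrast differed by a test of the difference itself. The effect of CBP on H3K27me3 at MYH7 was 2.74 on the log2 scale at 60 h and 0.41 at 0 h, and the difference was 2.33 (limma, SE 0.434, adjusted p = 0.00811). Both CBP 60 h libraries showed its direction against both WT 60 h libraries. The peaks behind it had a -log10 q of at most 2.15. Most of their length lay past the gene, and with the gene span alone the difference was 0.67 (limma adjusted p = 0.296).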

How the results depend on the processing

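The 14 alternatives, each a single change, left 151 of 168 counts of called members (those of H3K4me3, where no member could be tested, among them), 134 of 168 counts of all genes called and 21 of 24 comparisons of the fast genes with MYH7 within the range taken as unchanged, and no direction called at MYH7 reversed. The comparisons with MYH7 in H3K4me3 and H3K27me3 could not move, because both windows were at 0 kb in WT. The 3 that moved were all in H3K27ac. With the gene span alone no member was called for H3K27ac at 60 h in WT (0), for H3K27ac or H3K27me3 in CBP at 60 h (0 and 0) or for the H3K27me3 difference of the CBP effects (0), and the fast genes minus MYH7 became 0. With lists of equal length these 5 results were 0, 0, 0, 0 and -1.15, and the genes called in H3K27ac numbered 1775 (CBP at 0 h) and 2809 (CBP at 60 h). The genes called in H3K27me3 then numbered 315 (60 h in WT), 733 (CBP at 0 h), 344 (CBP at 60 h) and 748 (difference), against 905, 3246, 619 and 2393 as reported. With stricter peaks (-log10 q of 5 or more) the H3K27me3 numbers were 1, 979, 2 and 956 genes, with 0 members in CBP at 60 h and 0 in the difference, and 1 member was called in the H3K27ac difference. With 100 bp added the fast genes minus MYH7 were -4.14. With lists of equal length MYH9 (H3K27ac, CBP at 0 h) became 0.49 and MYH11 (H3K27me3, 60 h in WT and CBP at 0 h) became -0.44.

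Leaving out 1 library at a time, genes called in H3K4me3 ranged from 4234 to 6299 (60 h in WT), from 1081 to 2203 (CBP at 60 h) and from 3574 to 4692 (difference), and in H3K27ac from 3266 to 6193 (60 h in WT), 2003 to 3710 (CBP at 0 h), 2172 to 5294 (CBP at 60 h) and 1013 to 3575 (difference). In H3K27me3 they ranged from 252 to 974 (60 h in WT), 0 to 828 (CBP at 60 h) and 1489 to 2198 (difference). Members called ranged from 0 to 1 in CBP at 60 h in H3K27ac and in H3K27me3, in the H3K27ac difference and in CBP at 0 h in H3K27me3. An arm left with 1 library is assumed to vary like the others.

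Same-numbered libraries did not deviate together, with correlations between -0.0887 and 0.183, so the numbers are not taken as pairs. A replicate block changed no call at MYH7: its adjusted p was 0.00263 for H3K27ac at 60 h in WT, 0.0224 for H3K27ac and 0.0237 for H3K27me3 in CBP at 60 h, with log2 changes of 2.11, -1.04 and 2.74. With the block 6036 genes were called in H3K27ac at 60 h in WT and 448 in H3K27me3 in CBP at 60 h. The read depth is unknown, so a region without a peak may hold signal under the threshold of its list.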
